A study of Mus musculus with 36 samples.

Results

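The genes described here are the mouse cytochrome P450 genes of families 1 to 4, taken as every gene of the deposited count table whose symbol is Cyp, a family number from 1 to 4, a subfamily letter and a gene number with nothing after it. They are 54 of the 14702 genes in the table and fall into 18 subfamilies. Another 16 P450 genes of the table, with other family numbers or other symbol endings, are not among them. All 54 had enough reads to be tested in liver, and 22 passed the filter on low counts in quadriceps. The members were taken by symbol and not by a measured value, but the set was chosen with earlier results of these data known.

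Cytochromes P450 are haem enzymes of the endoplasmic reticulum that insert an oxygen atom into their substrates with electrons passed on by P450 oxidoreductase. Families 1 to 3 oxidise drugs, toxins, steroids and arachidonic acid, and family 4 hydroxylates fatty acids at the end of the chain. Hepatocytes around the central vein hold most of the drug-oxidising members. The aryl hydrocarbon receptor and nuclear receptors such as CAR, PXR and PPARα set the level of many of them.

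The mice were C57BL6/J males of 12 to 14 weeks, and total RNA was sequenced from 2 tissues, liver and the quadriceps muscle. Mice 1, 3 or 7 days after partial hepatectomy (PHx), the removal of 70% of the liver, gave 5 libraries per tissue and day. Sham mice, whose abdomen was opened and closed with the liver left whole, gave 3 libraries per tissue, so that each tissue had 18 libraries and the series 36. The day was read from the sample titles. The treatment field gives day 3 throughout, also for sham mice, and when sham tissue was taken is not known. The series title links hepatic Yap1 to catabolism and muscle loss during organ repair, and no sample carries an altered Yap1 gene by its labels. Labels do not state that libraries of a group came from separate mice, so p-values measure the spread between libraries. Levels are given as CPM (counts of a gene per 1000000 reads of its library, after TMM scaling of the library totals within each tissue) and changes as log2 fold changes ± standard error from edgeR. "Rose" and "fell" mean an edgeR adjusted p under 0.05 over all genes tested. The same sham libraries serve as reference for every day, so the 3 comparisons with sham are not independent of each other.

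Library totals ran from about 12464500 to 28862500 reads in liver and from about 15506200 to 29623900 reads in quadriceps. The labelled tissues carried their defining markers. The sum of 6 hepatocyte markers was 59607 to 120959 CPM at day 1, 63562 to 77046 at day 3, 58876 to 106873 at day 7 and 77089.5 to 98879.5 in sham livers. Some libraries stood apart. Cholangiocyte markers summed to 484 and 853 CPM in day 1 livers 4 and 5, to 41 to 86.2 CPM at day 3 and 20.5 to 56.7 CPM at day 7, against 10.01 to 14.4 CPM in sham. Muscle fibre markers summed to 915 and 1592 CPM in day 1 livers 1 and 2 and to 10.1 to 203 CPM in the other 13 PHx livers, against 565 to 994 CPM in sham livers. The part of the cholangiocyte reads in the liver results was not tested beyond leaving out day 1 livers 4 and 5. Leaving out day 1 livers 1 and 2 does not test the part of the muscle reads, because all sham livers held them too. Islet hormone reads reached 182 and 158 CPM in day 3 livers 3 and 4 and were 0 in sham livers. They were 5.97 to 22.8 CPM in the other day 3 livers and 9.05 to 65.0 CPM at day 7. Adipocyte markers summed to 37.2 to 355 CPM at day 1, 46.6 to 267 at day 3 and 0.755 to 141 at day 7, against 3.93 to 79.3 CPM in sham livers. Their part was not tested. Counts without day 1 livers 1 and 2, day 1 livers 4 and 5, or day 3 livers 3 and 4 stand beside the counts they touch. In bulk tissue, fewer cells of a type and less RNA per cell cannot be told apart.

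P450 RNA was lower in regrowing liver than in sham liver, with the lowest levels at day 3. Summed over the 54 members, their RNA was 23687 ± 7408 CPM at day 1, 10333 ± 1187 at day 3 and 16294 ± 6997 at day 7, against 30962 ± 1545 CPM in sham (SD, n = 5 per day and 3 sham). That is 76.5%, 33.4% and 52.6% of the sham mean. At day 3 the 5 livers ranged from 8933 to 11718 CPM, below every sham liver (29268 to 32295 CPM). At day 1 the range of 16551 to 34267 CPM reached above sham. Hepatocyte markers, given above, overlapped between day 1 or day 7 and sham, and at day 3 were all below the lowest sham value.

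At day 3, 29 members fell and 4 rose, where 12.8% and 15.8% of all 13879 liver genes fell and rose. Of those that fell, the fitted change was at least 2-fold in 25 members, against 913 of all 13879 genes (6.58%), and the median change over all 54 was -0.97 on the log2 scale, against 0.04 over all genes. In 31 members every day 3 liver lay below every sham liver, against 24.6% of all genes, and in 4 every one lay above, against 27.3%. Day 1 had 6 falls and 2 rises, against 11.0% and 16.7% of all genes, with a median of -0.28 against 0.06. Day 7 had 16 falls and 3 rises, against 6.74% and 12.4% of all genes, with a median of -0.70 against 0.05. The share of members called lower stood above the share of all genes at days 3 and 7 and near it at day 1. The day 1 counts were 3 falls and 1 rise without any 1 of the sham livers and 3 falls without day 1 liver 4, and 4 rises without day 1 liver 1 or 3. Without day 1 livers 4 and 5 together, 10 members fell, and without day 1 livers 1 and 2 together, 5 fell and 4 rose. Without day 3 livers 3 and 4, the day 3 count was 22 falls. The day 7 counts were 22 falls without day 7 liver 4, 10 and 9 without sham liver 1 or 3, and 1 rise without any 1 of the sham livers.

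**Figure D1:**
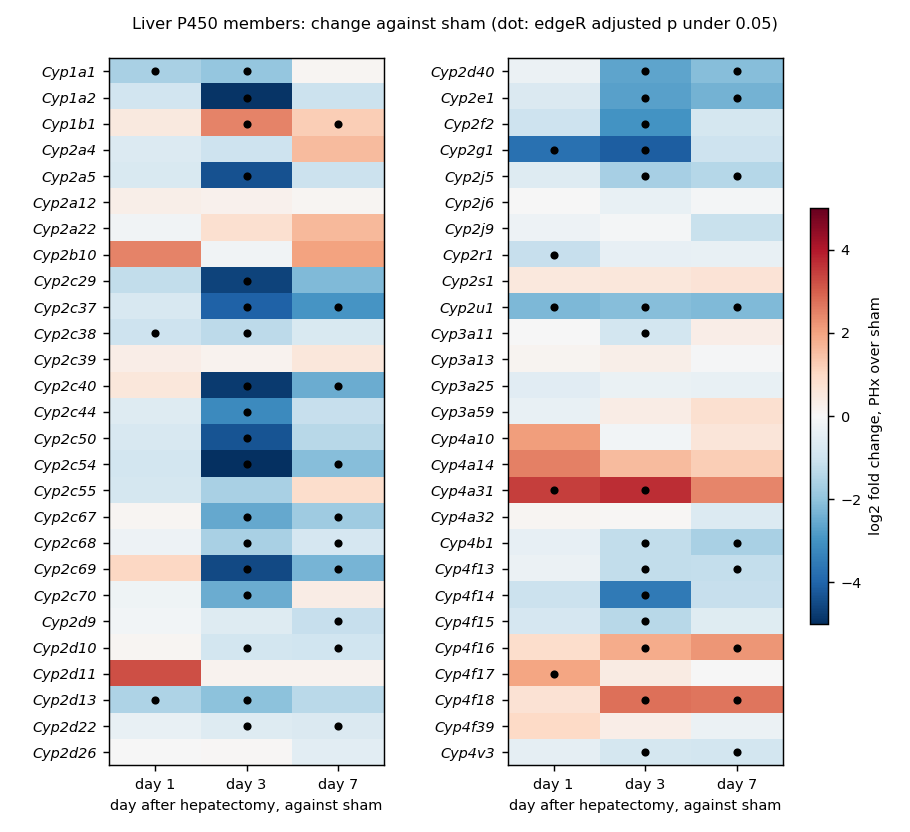
Log2 fold change (colour, red higher and blue lower in PHx liver than in sham) of each of the 54 P450 members at days 1, 3 and 7 after hepatectomy, with a black dot where edgeR gave an adjusted p under 0.05. Blue dominates the day 3 column, with 29 dots on lower members and 4 on higher ones, while day 1 has 6 and 2.

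Subfamilies differed in how much was left at day 3. As a share of the sham mean, summed RNA at day 3 was 3.33% for Cyp1a (2 members), 8.08% for Cyp2c (13 members), 12.7% for Cyp2f and 15.4% for Cyp2e (1 member each). Day 3 liver 1 set most of the Cyp1a mean, at 114 CPM where the other 4 had 1.38 to 28.4 CPM, and without it the Cyp1a share was 0.977%. The share was 24.4% for Cyp4f (7 members) and 35.6% for Cyp2j (3 members). Higher shares were left of Cyp2a (4 members) at 52.4%, Cyp4v (1 member) at 54.8%, Cyp3a (4 members) at 61.1% and Cyp2d (7 members) at 71.7%. Cyp4a (4 members) stood at 195%, with 1601, 1517, 642, 589 and 454 CPM in the day 3 livers, against 446 to 558 CPM in sham. Day 3 livers 1 and 2 thus set most of that mean, and day 3 liver 5 lay within the sham range. The other subfamilies have 1 member each. Cyp2g was at 5.56%, Cyp2u at 23.0%, Cyp4b at 42.4%, Cyp2r at 74.5%, Cyp2b at 88.5%, Cyp2s at 149% and Cyp1b at 556%. Of these, Cyp2g, Cyp2b, Cyp2s and Cyp1b were low in sham, at means of 4.54, 2.52, 0.844 and 1.37 CPM. All these shares are descriptions of the summed reads.

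**Figure D2:**
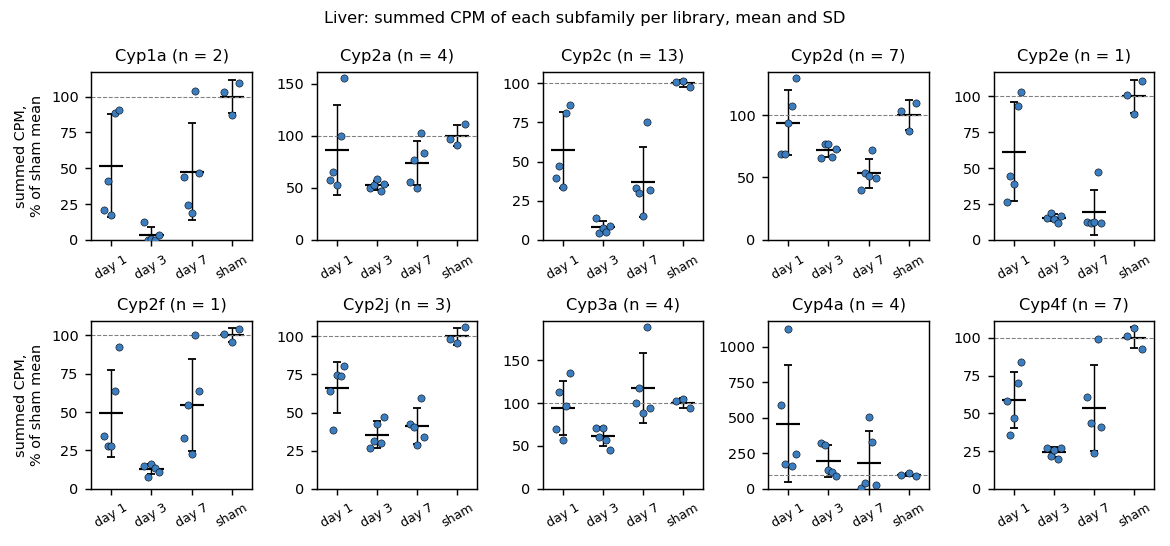
Summed CPM of 10 P450 subfamilies in each liver library as a percent of the sham mean (dashed line), with the group mean (line) and SD (bar) for days 1, 3 and 7 and sham. Of these 10, Cyp1a and Cyp2c have the lowest means at day 3, at 3.33% (0.977% without liver 1) and 8.08%, while Cyp2d and Cyp3a keep 71.7% and 61.1%.

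Per kilobase of the deposited gene length, Cyp2e1 had the highest level of the members in sham liver, at 6269 ± 733 CPM per kilobase (SD, n = 3). Cyp3a11 followed at 2213 ± 48.0 and Cyp2c29 at 961 ± 78.8 CPM per kilobase. The make-up of the P450 RNA pool, measured as each member's share of the summed CPM per kilobase, is given as a description, without a test. Cyp2e1 made up 29.5 ± 7.81% at day 1, 18.4 ± 2.73% at day 3 and 13.3 ± 4.09% at day 7, against 38.5 ± 2.38% in sham. Cyp3a11 made up 18.2 ± 5.17%, 22.5 ± 4.19% and 35.0 ± 3.97% at the same days, against 13.6 ± 1.07% in sham. By the group means Cyp3a11 was above Cyp2e1 at days 3 and 7 and below it in sham. Per kilobase, Cyp3a11 exceeded Cyp2e1 in 3 of 5 livers at day 3, in 5 of 5 at day 7 and in 0 of 3 sham livers. Cyp2d26, whose own level did not pass the test at any day, made up 10.6 ± 2.13% at day 3 and 3.23 ± 0.15% in sham.

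Family 1 holds the classical targets of the aryl hydrocarbon receptor. Cyp1a2, which oxidises caffeine and aromatic amines, had 186, 367, 154, 796 and 815 CPM in the day 1 livers. It had 114, 1.08, 3.64, 1.01 and 28.1 CPM at day 3, 395, 221, 169, 932 and 419 CPM at day 7 and 928, 782 and 981 CPM in sham. Every day 3 liver was below every other liver of the series, 3 of them at under 4 CPM. At day 1 the livers split into 3 low ones and 2 near sham, and at day 7 liver 4 was within the sham range. The day 3 change was -4.92 ± 1.16 (edgeR adjusted p = 0.00521), and -6.74 without day 3 liver 1, the highest of its group. Cyp1a2 (chromosome 9, part of a Cyp1a pair at 57676937 to 57703824, mm10) and Cyp1a1 lie side by side.

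Cyp1a1, the inducible partner, was near the limit of detection, with 0.232 to 0.367 CPM at day 3 and 0.769 to 1.64 CPM in sham. It fell at day 1 (-1.63) and day 3 (-1.93), but neither call held without sham liver 3 (edgeR adjusted p = 0.152 and 0.0716). The day 1 value also lost its call in 5 of the other 7 fits that left out 1 library.

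Cyp1b1, a member found mainly outside hepatocytes that acts on oestrogens and retinoids, went the other way. It had 7.51, 12, 5.88, 7.11 and 5.64 CPM in the day 3 livers and 4.67, 3.09, 2.497, 2.03 and 3.78 CPM at day 7, against 1.32, 1.31 and 1.48 CPM in sham. All day 3 and day 7 livers were above all sham livers. The rise was 2.47 ± 0.36 at day 3 (edgeR adjusted p = 0.000227) and 1.23 at day 7, the second not called without any 1 of the sham livers or without day 7 liver 1. Stellate cell and fibroblast markers moved with it, at 394 to 680.3 CPM at day 3 and 210.2 to 942 CPM at day 7, against 186 to 269 CPM in sham, and their part in the rise was not tested.

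**Figure D3:**
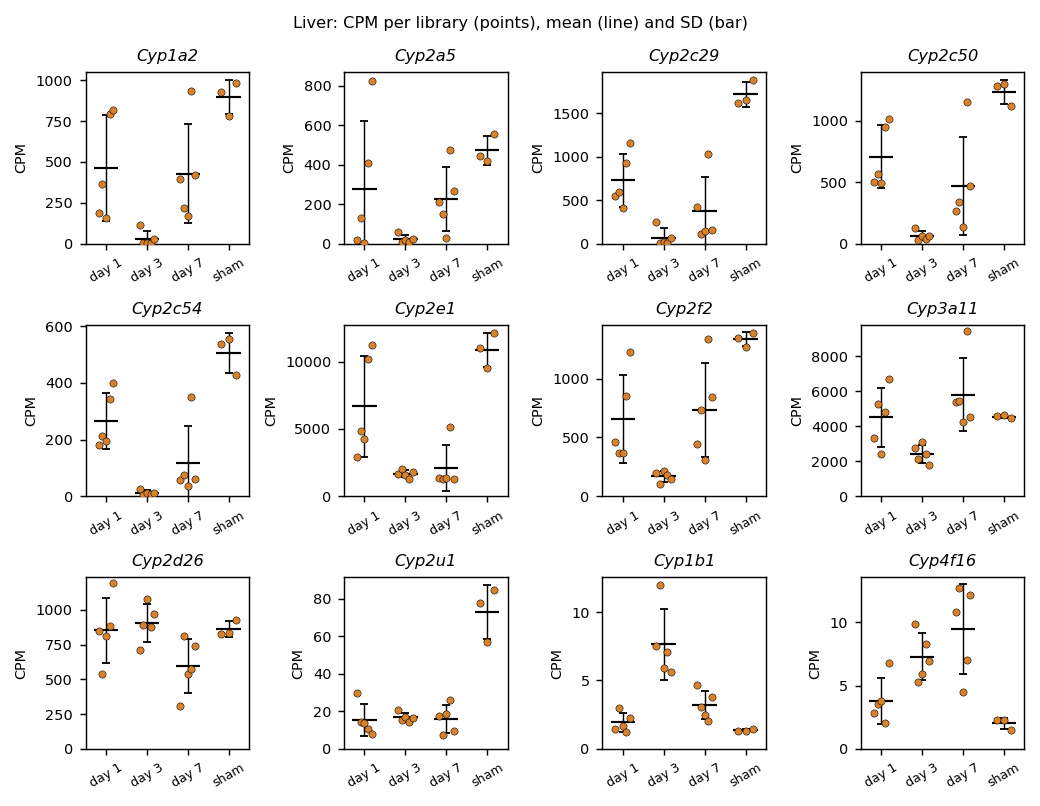
CPM of 12 P450 genes in each liver library (points), with group mean (line) and SD (bar), at days 1, 3 and 7 and in sham. Cyp1a2, Cyp2c29, Cyp2c50, Cyp2c54, Cyp2e1 and Cyp2f2 have all day 3 livers below all sham livers, Cyp2d26 overlaps with sham, and Cyp1b1 and Cyp4f16 have all day 3 livers above sham.

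Cyp2c was the largest subfamily, and 11 of its 13 members fell at day 3, against 12.8% of all genes, all 11 at least 2-fold, against 6.58%. The Cyp2c genes oxidise arachidonic acid, steroids and drugs, and in mouse lie on chromosome 19 (39007019 to 44029247, mm10). Cyp2c29 had 548, 597, 407, 924 and 1155 CPM in the day 1 livers and 251, 6.95, 18.8, 8.76 and 63.8 CPM at day 3. At day 7 it had 419, 116, 146, 1032 and 153 CPM and in sham 1618, 1652 and 1877 CPM. No PHx liver at any day reached the lowest sham liver. Its day 3 fall was -4.62 ± 0.98 (edgeR adjusted p = 0.00291), and -6.14 without day 3 liver 1, which held far more than the other 4.

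Cyp2c54, an arachidonic acid oxidase of mouse liver, had the largest fall of all 54 members at day 3. It had 26.2, 5.41, 11.9, 7.15 and 12.4 CPM at day 3 and 55.96, 73.6, 37.8, 352 and 62.3 CPM at day 7, against 537, 556 and 426 CPM in sham. The day 3 fall was -5.32 ± 0.66 (edgeR adjusted p = 9.94e-05). At day 7, 4 livers were at most 73.6 CPM and liver 4 was nearer the sham livers, though below them. The day 7 fall was -2.12, and -3.14 without liver 4. It was not called without any 1 sham liver or without day 7 liver 1 or 2 (edgeR adjusted p = 0.0507 to 0.0704).

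Cyp2c50 and Cyp2c37, neighbours of Cyp2c54 that act on the same fatty acid, fell at day 3. Cyp2c50 had 124, 29.4, 59.99, 41.3 and 58.5 CPM at day 3, against 1285, 1296 and 1121 CPM in sham, a change of -4.30 ± 0.56 (edgeR adjusted p = 0.000121). Cyp2c37 had 29.9, 17.6, 28.9, 30.6 and 24.5 CPM at day 3, against 498, 437 and 359.9 CPM in sham, a change of -4.04 ± 0.56 (edgeR adjusted p = 0.000189). At day 7 Cyp2c37 was lower than in sham, with 18.5, 18.8, 71.8, 145 and 28.1 CPM and a change of -2.93 ± 0.54 (-3.65 without day 7 liver 4). Cyp2c50 had 261, 336, 137, 1149.6 and 472 CPM, a change of -1.39 that did not pass the test against sham (edgeR adjusted p = 0.0699). Without day 7 liver 4 it was called, at -2.03 (edgeR adjusted p = 0.00486), and DESeq2 also called it (adjusted p = 0.0292). Cyp2c37 shares 30.1%, Cyp2c50 29.8% and Cyp2c54 25.7% of their 50-base stretches with other genes, so that their single values are uncertain. Whether the day 7 changes of Cyp2c37 and Cyp2c50 differ was not tested.

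Of the other Cyp2c genes, Cyp2c70, which makes muricholic acids in mouse, fell at day 3 to 18.4 to 83.2 CPM, against 276 to 392 CPM in sham, and was at 93.6 to 616 CPM at day 7. Cyp2c40 and Cyp2c69, known as female-biased genes and low in these male livers, had 0.138 to 0.793 and 0.0387 to 0.543 CPM at day 3, against 10.5 to 12.4 and 4.73 to 6.15 CPM in sham. Both fell, by 4.80 and 4.52 on the log2 scale. Cyp2c39 and Cyp2c55 were the 2 members that did not pass at day 3. Many of these genes are near copies. Of all 50-base stretches of its transcripts, Cyp2c40 shares 70.2%, Cyp2c69 54.8% and Cyp2c67 52.8% with another gene, so reads could be divided between them in ways the counting rule decides, and their single values are uncertain. Cyp2c29 shares 6.69% and Cyp2c70 0%. Outside Cyp2c, Cyp2d9 shares 29.3%, Cyp2a12 27.5%, Cyp3a25 26.2% and Cyp4f16 26%, so their single values are uncertain too.

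The promoters of several Cyp2c genes and of Cyp3a11 and Cyp1a2 are printed from RefSeq (GRCm38.p6), from 250 bases before to 50 bases after the annotated start, because these genes fell together at day 3 and include close copies. Promoters were found for 44 of the 54 members. Capitals mark CAAAGTCCA, a binding motif of HNF4, the nuclear receptor that defines hepatocytes, and TATAAA, the letters of a TATA box, wherever they occur. Each was sought on both strands, so that TATAAA on the other strand reads TTTATA. The 2 motifs did not overlap in these sequences.
Cyp2c37 (chr19:39992174-39992473, plus strand): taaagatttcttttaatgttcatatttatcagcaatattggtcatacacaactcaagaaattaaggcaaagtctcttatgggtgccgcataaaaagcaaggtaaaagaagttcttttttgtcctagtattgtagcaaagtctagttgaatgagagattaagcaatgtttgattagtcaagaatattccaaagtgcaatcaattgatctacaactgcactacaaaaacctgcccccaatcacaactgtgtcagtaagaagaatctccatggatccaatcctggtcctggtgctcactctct
Cyp2c50 (chr19:40089429-40089728, plus strand): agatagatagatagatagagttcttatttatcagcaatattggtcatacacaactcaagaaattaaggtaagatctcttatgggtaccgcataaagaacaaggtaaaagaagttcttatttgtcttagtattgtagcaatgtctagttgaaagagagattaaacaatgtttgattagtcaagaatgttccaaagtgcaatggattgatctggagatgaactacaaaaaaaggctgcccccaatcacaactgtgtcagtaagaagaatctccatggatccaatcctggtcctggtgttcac
Cyp2c67 (chr19:39648993-39649292, minus strand): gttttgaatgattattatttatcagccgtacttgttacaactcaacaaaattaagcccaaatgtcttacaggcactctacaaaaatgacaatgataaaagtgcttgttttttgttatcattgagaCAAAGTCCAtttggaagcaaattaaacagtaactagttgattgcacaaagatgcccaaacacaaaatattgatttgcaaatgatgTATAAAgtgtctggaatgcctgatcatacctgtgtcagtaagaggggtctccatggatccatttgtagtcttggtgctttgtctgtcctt
Cyp2c69 (chr19:39886720-39887019, minus strand): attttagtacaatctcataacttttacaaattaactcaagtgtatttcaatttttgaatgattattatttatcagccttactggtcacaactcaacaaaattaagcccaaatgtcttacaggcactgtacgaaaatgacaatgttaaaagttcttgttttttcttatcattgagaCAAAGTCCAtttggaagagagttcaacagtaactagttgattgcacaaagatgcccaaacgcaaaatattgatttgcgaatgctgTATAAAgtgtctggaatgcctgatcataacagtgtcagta
Cyp2c70 (chr19:40187237-40187536, minus strand): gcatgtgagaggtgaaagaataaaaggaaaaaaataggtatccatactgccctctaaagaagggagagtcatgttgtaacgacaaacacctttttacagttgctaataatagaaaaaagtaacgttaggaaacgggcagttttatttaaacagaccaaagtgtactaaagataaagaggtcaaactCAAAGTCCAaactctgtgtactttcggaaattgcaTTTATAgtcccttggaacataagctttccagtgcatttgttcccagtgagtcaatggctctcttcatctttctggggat
Cyp3a11 (chr5:145879805-145880104, minus strand): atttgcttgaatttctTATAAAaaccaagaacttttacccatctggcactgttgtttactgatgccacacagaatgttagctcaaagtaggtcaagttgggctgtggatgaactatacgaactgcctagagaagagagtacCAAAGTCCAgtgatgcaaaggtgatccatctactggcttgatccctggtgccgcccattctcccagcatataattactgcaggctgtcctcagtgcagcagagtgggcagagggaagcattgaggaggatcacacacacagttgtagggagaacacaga
Cyp1a2 (chr9:57683606-57683905, minus strand): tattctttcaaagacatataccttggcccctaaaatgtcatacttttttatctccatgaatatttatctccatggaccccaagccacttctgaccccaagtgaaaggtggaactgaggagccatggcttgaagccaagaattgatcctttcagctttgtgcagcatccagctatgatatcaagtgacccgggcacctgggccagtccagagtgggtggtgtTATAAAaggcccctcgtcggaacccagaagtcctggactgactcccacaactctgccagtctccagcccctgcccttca

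The HNF4 motif was found in 6 of the 44 member promoters (13.6%) and in 129 of 27025 RefSeq promoters of the same length (0.477%). The 6 were Cyp3a11, Cyp2c40, Cyp2c67, Cyp2c68, Cyp2c69 and Cyp2c70, several of them copies of one another, so they are not independent occurrences. The promoters of Cyp2c68 and Cyp2c69 are 91.1% identical and those of Cyp2c37 and Cyp2c50, which lack the motif, 86.6%. All 6 genes fell at day 3, with changes from -4.80 for Cyp2c40 to -0.91 for Cyp3a11, and so did Cyp2c37 and Cyp2c50 without it. The letters TATAAA were found in 22 of 44 member promoters (50%) and in 14.2% of all. They were counted at any position in the window, so not every match need be a TATA box. Counted from the annotated start, matches began at -234 in Cyp3a11, 10 in Cyp2c69 and 40 in Cyp2c40. The nuclear receptor half-site AGGTCA was found in 11 of 44 (25%, against 16% of all) and the core GCGTG of the xenobiotic response element in 10 of 44 (22.7%, against 32.5%). TTCNNNGAA, bound by STAT factors, was found in 2 of 44 (4.55%, against 8.47%). No member promoter held TTATGTAA (0.955% of all) or TTGCGCAA (0.185% of all), motifs of the PAR-bZIP and C/EBP factors. A match of letters in this window is not evidence of binding.

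Cyp2e1, which oxidises ethanol and small solvents and marks the hepatocytes nearest the central vein, was the most abundant member. It had 2891, 4826, 4266, 10169.8 and 11239 CPM in the day 1 livers and 1675, 2023, 1568, 1307 and 1815 CPM at day 3. The day 7 livers had 1389, 1268, 1335, 5169.7 and 1274 CPM, against 11008, 9553 and 12089 CPM in sham. All day 3 and day 7 livers lay below all sham livers, while day 1 livers 4 and 5, the ones rich in cholangiocyte markers, overlapped with sham and day 1 livers 1 to 3 did not. The fall was -2.70 ± 0.48 at day 3 (edgeR adjusted p = 0.000935) and -2.38 ± 0.48 at day 7 (edgeR adjusted p = 0.00426). Day 7 liver 4 held 5169.7 CPM and the others at most 1389, and without it the day 7 change was -3.05.

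All 8 members of a list of pericentral P450 genes (Cyp1a2, Cyp2a5, Cyp2c29, Cyp2c37, Cyp2c50, Cyp2c54, Cyp2e1 and Cyp3a11) fell at day 3, with a median of -4.32, where 12.8% of all genes fell. The day 3 count was 7 without any 1 sham liver or without day 3 liver 2, 4 or 5, and 6 without day 3 livers 3 and 4. The list was drawn up with earlier results of these data known. At day 7, 3 of the 8 (Cyp2c37, Cyp2c54 and Cyp2e1) were lower, against 6.74% of all genes. That count was 5 without day 7 liver 4 and 2 without any 1 sham liver or without day 7 liver 1 or 2. Cyp2a5, the coumarin hydroxylase, had 19.9, 131, 5.52, 406 and 824 CPM at day 1 and 56.7, 6.75, 18.6, 9.54 and 24.98 CPM at day 3, against 442, 419.6 and 556 CPM in sham. The day 1 values ran from far below sham to above it. Its day 3 fall was -4.34 ± 1.11 (edgeR adjusted p = 0.00855; -5.0 without day 3 liver 1), and the call was lost without day 3 livers 3 and 4 (edgeR adjusted p = 0.0628). Cyp2a5 shares 38.6% of its 50-base stretches with other genes, mostly Cyp2a4.

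Cyp2f2, which bioactivates naphthalene and is known from periportal hepatocytes and airway, also fell at day 3. It had 198, 104, 216, 180.4 and 148 CPM at day 3 and 444, 731, 307, 1334 and 847 CPM at day 7, against 1345, 1273 and 1390.2 CPM in sham. Its day 3 fall of -2.98 ± 0.44 (edgeR adjusted p = 0.000246) was called in every fit that left out 1 library. Cyp2g1, a steroid hydroxylase best known from olfactory tissue, was low throughout, at 0 to 0.67 CPM at day 1, 0 to 0.626 at day 3 and 0.0446 to 4.39 at day 7, against 4.21 to 5.13 CPM in sham. Its call at day 1 (-3.74) rests on few reads in the PHx livers. Cyp2a12, in contrast, had 353, 427, 462, 374 and 414 CPM at day 3 and 359.9, 331 and 361 CPM in sham, with overlap between the groups and no call at any day.

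Cyp2u1, which hydroxylates long-chain fatty acids, fell at days 1, 3 and 7. It had 29.9, 14.5, 13.7, 10.8 and 7.73 CPM at day 1 and 20.8, 15.4, 16.8, 14.6 and 16.7 CPM at day 3. At day 7 it had 17.7, 7.46, 18.6, 26.2 and 9.54 CPM, against 77.6, 57.1 and 84.7 CPM in sham. All 15 PHx livers were below all 3 sham livers. The changes were -2.25 ± 0.38, -2.12 ± 0.38 and -2.20 ± 0.38 (edgeR adjusted p = 0.00138, 0.000938 and 0.00203), each called in every fit that left out 1 library. Cyp2r1, a vitamin D 25-hydroxylase, fell at day 1, with 16.6, 10.6, 10.5, 7.62 and 14.01 CPM, against 26.8, 26.1 and 27.4 CPM in sham (-1.17 ± 0.21, edgeR adjusted p = 0.00173). It was higher at day 3 than at day 1 (0.75, edgeR adjusted p = 0.00943). Cyp2j5, an arachidonic acid epoxygenase of liver and kidney, had 199, 253, 368, 254 and 417 CPM at day 3 and 360.4, 331, 249, 523 and 290.0 CPM at day 7, against 922, 892 and 1008 CPM in sham. It fell by 1.66 at day 3 and 1.42 at day 7 on the log2 scale (edgeR adjusted p = 0.000549 and 0.00353), and Cyp2j6 and Cyp2j9 passed at neither day.

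The Cyp2d subfamily lies on chromosome 15 (82370527 to 82794245, mm10). Its summed RNA was 93.7% of sham at day 1, 71.7% at day 3 and 53.2% at day 7. Cyp2d9, a male-biased steroid 16α-hydroxylase, had 869, 1026, 816, 762 and 813 CPM at day 3 and 565, 431, 549.7, 996 and 454 CPM at day 7, against 1445, 975 and 1581 CPM in sham. The day 7 fall was -1.16 (edgeR adjusted p = 0.0113), not called without sham liver 1 or 3 (edgeR adjusted p = 0.0529 and 0.0629). Cyp2d26 had 711, 889.5, 1079, 879.7 and 968 CPM at day 3 and 827, 836 and 928 CPM in sham, with the groups overlapping. Cyp2d22, which is near in function to human CYP2D6, had 134 to 165 CPM at day 3 and 111 to 185 CPM at day 7, against 224 to 228 CPM in sham. Its falls at both days were small (-0.63 and -0.72) and not called without any 1 of the sham livers. At day 3, 4 of the 7 Cyp2d members fell, against 12.8% of all genes, and at day 7, 4 of 7, against 6.74%.

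Cyp3a11, the main drug-oxidising Cyp3a enzyme of mouse liver, fell at day 3 and did not pass at days 1 and 7. It had 3336, 5242, 2431, 4786 and 6681 CPM at day 1 and 2748, 2111, 3084, 2399 and 1781 CPM at day 3. The day 7 livers had 5358, 5419, 4254, 9415 and 4510.4 CPM, against 4561, 4631 and 4437 CPM in sham. All day 3 livers were below all sham livers, and the day 1 and day 7 livers spread to both sides of sham. The day 3 fall was -0.91 ± 0.30 (edgeR adjusted p = 0.0337), not called without any 1 of the sham livers or without day 3 liver 2, 4 or 5 (edgeR adjusted p = 0.0546 to 0.087). Cyp3a25 had 1059, 997, 621, 554 and 527 CPM at day 3 and 1068, 1098 and 699 CPM in sham, with overlap and no call. Cyp3a13 and Cyp3a59 passed at no day.

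Family 4 was split. Cyp4a10, Cyp4a14, Cyp4a31 and Cyp4a32 hydroxylate fatty acids, lie on chromosome 4 (115486200 to 115622366, mm10) and are targets of PPARα, the receptor that responds to fatty acids in fasting. Cyp4a31 rose at day 1 and day 3, the one member of the 4 that passed in edgeR. It had 59.4, 10.3, 156, 17.7 and 15.3 CPM at day 1 and 118, 72.7, 36.7, 26.2 and 53.6 CPM at day 3. At day 7 it had 5.201, 14.4, 46.3, 50.9 and 11.6 CPM, against 4.92, 5.11 and 4.05 CPM in sham, so that all PHx livers were above all sham livers. The rise was 3.46 ± 0.96 at day 1 (edgeR adjusted p = 0.0155) and 3.71 ± 0.97 at day 3 (edgeR adjusted p = 0.00966). The day 1 rise was 2.44 without day 1 liver 3 and was not called without any 1 of the sham livers (edgeR adjusted p = 0.0559 to 0.0645). At day 7 edgeR did not call Cyp4a31 (edgeR adjusted p = 0.068) and DESeq2 did (DESeq2 adjusted p = 0.00991).

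Cyp4a14 had 1684, 447, 2983, 332 and 572 CPM at day 1 and 1003, 1036, 479, 424 and 254 CPM at day 3. The day 7 livers had 20.5, 122, 1582, 686 and 93.8 CPM, against 169, 280.0 and 184 CPM in sham. All day 1 livers and 4 of 5 day 3 livers exceeded the highest sham liver, and the day 7 livers ran from far below sham to far above it. The day 1 change of 2.51 ± 1.10 did not pass (edgeR adjusted p = 0.0948), though DESeq2 called it (DESeq2 adjusted p = 0.0343). Cyp4a10 had 1103, 353, 2266, 386 and 562 CPM at day 1, against 237, 214 and 212 CPM in sham, a change of 2.08 ± 1.12 that did not pass either (edgeR adjusted p = 0.173). The same libraries were high in each of these genes. Day 1 liver 3 held the highest day 1 value of all 4, and day 7 livers 3 and 4 held the 2 highest day 7 values of all 4. Day 7 liver 1 or 5 held the lowest day 7 value of each. Cyp4a32 shares 46.8%, Cyp4a10 29.8% and Cyp4a31 20.6% of 50-base stretches with other genes, and Cyp4a14 0.245%.

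**Figure D4:**
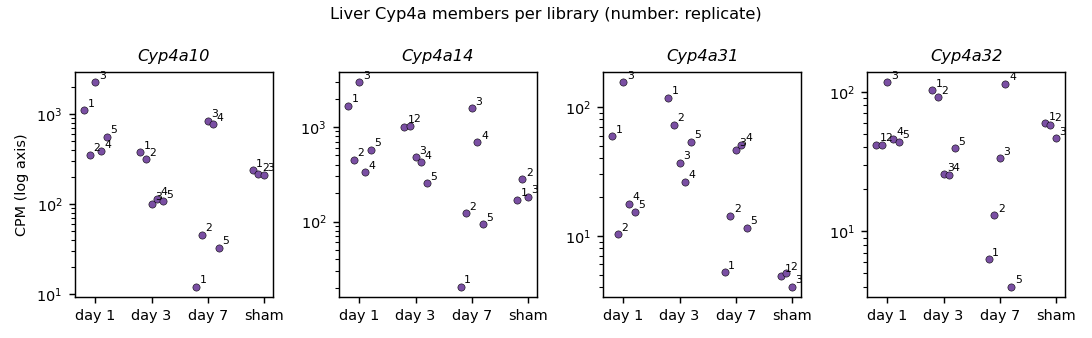
CPM on a log axis of the 4 Cyp4a genes in each liver library at days 1, 3 and 7 and in sham, each point labelled with its replicate number. Cyp4a31 has all PHx livers above sham, and in every panel day 7 livers 3 and 4 sit above day 7 livers 1, 2 and 5.

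Of the 7 Cyp4f genes, 3 fell and 2 rose at day 3, where 12.8% of all genes fell and 15.8% rose. Cyp4f14, which degrades leukotriene B4 and vitamin E, had 49.8, 7.32, 23.9, 10.6 and 28.2 CPM at day 3 and 178, 71, 20.9, 276 and 86.7 CPM at day 7, against 283, 315 and 247 CPM in sham. Its day 3 fall was -3.55 ± 0.65 (edgeR adjusted p = 0.00111). Cyp4f15 fell too, with 39.5 to 62.3 CPM at day 3, against 136 to 142 CPM in sham. Cyp4f16 rose, with 9.89, 5.31, 5.92, 8.299 and 6.94 CPM at day 3 and 10.8, 12.8, 4.504, 7.03 and 12.1 CPM at day 7, against 2.28, 2.26 and 1.52 CPM in sham. All livers of both days were above all sham livers, and the rises were 1.84 ± 0.39 and 2.22 ± 0.40 (edgeR adjusted p = 0.00298 and 0.00257). Cyp4f16 shares 26% of its 50-base stretches with other genes, mostly Cyp4f37. Cyp4f18, which acts on leukotriene B4 in neutrophils, rose to 1.503 to 3.71 CPM at day 3, against 0.3204 to 0.498 CPM in sham. Neutrophil markers summed to 5.38 to 24.1 CPM at day 3, against 0.3204 to 0.905 CPM in sham, and their part in that rise was not tested. Cyp4f17 rose at day 1, with 11.7, 14.4, 13.7, 30.5 and 45.6 CPM, against 6.46, 4.88 and 6.49 CPM in sham (1.96 ± 0.41, edgeR adjusted p = 0.00412). The highest 2 of these were the livers rich in cholangiocyte markers, and without them the change was 1.13 (edgeR adjusted p = 0.0129).

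Cyp4v3, the mouse counterpart of a human fatty acid hydroxylase of the retina, had 252 to 341 CPM at day 3, against 501 to 674 CPM in sham. Its fall of -0.87 was not called without any 1 sham liver or without day 3 liver 2, 3, 4 or 5. Cyp4b1, known from lung, fell by 1.24 at day 3, to 3.29 to 5.64 CPM, against 9.81 to 12.3 CPM in sham, and was not called without sham liver 1 or 2 or day 3 liver 3. Cyp2b10, the standard target gene of CAR, had 1.73, 20.8, 5.098, 12.9 and 29.5 CPM at day 1, 4.13, 0.773, 1.97, 2.52 and 1.73 CPM at day 3 and 1.75, 3.05, 26.04, 14.6 and 4.98 CPM at day 7, against 3.18, 2.85 and 1.52 CPM in sham. In 4 of 5 day 1 livers it was above all sham livers, but the day 1 change of 2.46 ± 0.92 did not pass (edgeR adjusted p = 0.0537). DESeq2 called it at day 1 (DESeq2 adjusted p = 0.00893) and at day 7 (DESeq2 adjusted p = 0.0467), where edgeR did not (edgeR adjusted p = 0.123).

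Between day 1 and day 3, 23 members fell and 4 rose, against 13.6% and 11.6% of all genes. The falls included 10 of the 13 Cyp2c members, and Cyp2c40 was at 0.138 to 0.793 CPM at day 3 and 10.8 to 29.5 CPM at day 1 (-5.34 ± 0.70, edgeR adjusted p = 0.000381). Day 1 livers 4 and 5 reached the sham range for Cyp2e1, Cyp1a2 and Cyp2c44. Without them 20 members passed in either direction, in place of 27, without day 1 livers 1 and 2, 30 passed, and without day 3 livers 3 and 4, 14 passed. From day 3 to day 7, 6 members rose (Cyp2c44, Cyp2c50, Cyp2c54, Cyp2c70, Cyp2f2 and Cyp3a11) and Cyp1b1 fell, where 0.612% of all genes rose and 0.648% fell (1.26% either way). Cyp2c44, an epoxygenase, had 146 to 606 CPM at day 7 and 50.4 to 134 CPM at day 3. Cyp2e1 and Cyp2c37 did not pass between these days. This comparison rests on single libraries: with 1 library left out the count was 0 without day 3 liver 2 or 4, 2 without day 3 liver 3, 4 without day 3 liver 5 or day 7 liver 2, 3 without day 7 liver 1 or 4, and 13 without day 7 liver 3. It was 0 without day 3 livers 3 and 4 together, and DESeq2 called 17. At an unadjusted edgeR p under 0.05 it was 24 of 54.

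Livers of the same day differed in many members together. Of the 52 members with a mean of at least 1 CPM at day 7, liver 4 held the highest value in 31. Of 47 at day 3, liver 1 was highest in 22, and of 49 at day 1, liver 5 was highest in 26. Day 7 liver 4 had summed P450 RNA of 28769.7 CPM, just under the lowest sham liver at 29268 CPM, while the other 4 day 7 livers ran from 12628 to 14119 CPM.

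Genes that serve the P450 system were followed as lists, read against the 12.8% of all genes that fell and the 15.8% that rose at day 3. Of 24 nuclear receptors and other factors that control P450 genes, 8 fell and 3 rose at day 3. Ppara fell to 172 to 336 CPM, against 655 to 779 CPM in sham (-1.55 ± 0.36, edgeR adjusted p = 0.005), and Cebpa, a factor of the mature hepatocyte, fell by 2.04 on the log2 scale. Nr1i2, which encodes PXR, rose (0.72 ± 0.25, edgeR adjusted p = 0.0389), as did Cux2, a factor of female liver (3.61 ± 1.15, edgeR adjusted p = 0.0263). Hnf4a was -0.13 ± 0.18, Ahr -0.17 ± 0.50 and Nr1i3, which encodes CAR, -0.59 ± 0.45, and none of these 3 passed. Of 7 electron donors and partners 4 fell, among them Pgrmc1 (-1.10) and Cyb5r3 (-1.38), and Por, the P450 oxidoreductase, had 432 to 604 CPM at day 3 and 327 to 407 CPM in sham without passing. Of 8 haem synthesis genes Fech (-0.74) and Urod (-0.57) fell, and the rate-limiting Alas1 did not pass. Hmox1, which breaks haem down, rose to 114 to 343 CPM at day 3, against 38.1 to 39.4 CPM in sham (2.61 ± 0.73, edgeR adjusted p = 0.0136). Ephx1, an epoxide hydrolase that acts on products of P450 enzymes, fell to 199 to 417 CPM at day 3, against 473 to 641 CPM in sham (edgeR adjusted p = 0.018), and Fmo2, a flavin monooxygenase, rose (1.76 ± 0.48, edgeR adjusted p = 0.0119). Of 14 P450 genes outside families 1 to 4, 3 fell and 1 rose, and the male-biased Cyp7b1 fell by 3.56 on the log2 scale.

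In sham quadriceps the summed RNA of the 54 members was 334 CPM on average, against 30962 CPM in sham liver. Most members were lower in muscle, but not all. Per kilobase, Cyp4f39 had 4.36 CPM in sham muscle and 0.0898 in sham liver, and Cyp1b1 0.954 ± 0.764 and 0.267 ± 0.019 (SD). Cyp4f18 was near equal, at 0.234 and 0.230. In quadriceps 22 of 54 members could be tested. At day 3, 7 members fell and 2 rose, where 22.6% and 24.8% of 13601 genes fell and rose, so that the share called (9 of 22) was near that of all genes (47.5% either way). Muscle fibre markers summed to 110262 to 205172 CPM at day 3, below every sham muscle (216114 to 305113 CPM), and macrophage markers to 37.7 to 106 CPM, against 22.9 to 31.2 CPM in sham muscle. Their part in the day 3 results was not tested. At days 1 and 7 edgeR called 0 members. At an unadjusted p under 0.05 there were 9 at day 1 and 2 at day 7, and DESeq2 called 4 and 0. Over all genes edgeR called 5.29% at day 1 (3.04% higher and 2.26% lower) and 0.0588% at day 7 (0.0441% higher and 0.0147% lower).

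Cyp4f39, which in skin makes the very long fatty acids of the barrier, had the largest fall of the members in muscle at day 3. It had 0.424, 0.612, 0.911, 0.778 and 1.097 CPM at day 3 and 8.51, 2.19, 2.98, 6.99 and 3.72 CPM at day 7, against 14.1, 12.02 and 8.13 CPM in sham quadriceps. All day 3 muscles were below every other muscle library. The day 3 fall was -3.88 ± 0.57 (edgeR adjusted p = 0.000281), and it was higher at day 7 than at day 3 (2.66 ± 0.52, edgeR adjusted p = 0.00204). From day 3 to day 7, Cyp4f39, Cyp1a1, Cyp2f2 and Cyp2j6 rose, 4 of 22 members, where 17.0% of all genes rose.

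Cyp2e1 was the most abundant member in sham muscle, at 152 ± 135 CPM per kilobase (SD, n = 3). It had 37.01, 19.9, 85.2, 47 and 8.38 CPM at day 3 and 145, 7.83, 4.66, 387 and 76.8 CPM at day 7, against 123, 134 and 533 CPM in sham. Its day 3 fall of -2.74 was -1.70 and not called without sham muscle 3, nor called without sham muscle 2 or day 3 muscle 1, 2, 4 or 5 (edgeR adjusted p = 0.0519 to 0.254). Cyp2f2 fell by 3.14 and Cyp4v3 by 1.75 at day 3. Without sham muscle 3 these were -2.11 and -0.96, the second not called (edgeR adjusted p = 0.158). Adipocyte markers moved in the same direction. The sum of 5 of them was 38.8, 24.3, 78.7, 47.4 and 12.1 CPM at day 3 and 256, 12.7, 5.48, 893 and 186 CPM at day 7, against 272, 446 and 1429.6 CPM in sham. Sham muscle 3 and day 7 muscle 4 were the highest of their groups both for these markers and for Cyp2e1, and the markers' part in the falls was not tested.

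Cyp1b1 rose in muscle at day 3. It had 48.2, 13.5, 12.9, 36.3 and 13.7 CPM at day 3, against 1.89, 3.46 and 9.32 CPM in sham, a change of 2.35 (edgeR adjusted p = 0.0254; 3.21 without sham muscle 3). It was not called without sham muscle 1 or 2 or day 3 muscle 1 (edgeR adjusted p = 0.0564 to 0.101). Cyp2d22 also rose, with 25.3, 14.5, 12.9, 13.7 and 15.1 CPM at day 3, against 7.81, 7.05 and 7.87 CPM in sham. All its day 3 muscles were above all sham muscles, and the change of 1.10 was not called without any 1 sham muscle or without day 3 muscle 1 (edgeR adjusted p = 0.053 to 0.0721). The remaining falls at day 3 were those of Cyp1a1, Cyp2u1 and Cyp4f16, and the last 2 were close to the threshold (edgeR adjusted p = 0.0476 and 0.0467) and lost it in 7 and 6 of the 8 fits that left out 1 library. Without sham muscle 3 the change of Cyp4f16 was -0.46. The count of 9 was 4 without sham muscle 2 or 3 or day 3 muscle 1.

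Hepatocyte members gave trace reads in some muscles. Cyp3a11 had 2.55, 0.884, 0.0533, 1.95 and 2.19 CPM at day 1 and 1.21, 0.4205, 0.405, 4.38 and 0 CPM at day 3. At day 7 it had 0.217, 0.0508, 1.57, 0 and 0.2297 CPM, against 0.132, 0.0407 and 0.0884 CPM in sham muscle. The sum of 6 hepatocyte markers was 45.5, 15.2, 2.03, 51.9 and 72.2 CPM at day 1, 27.7, 16.2, 13.3, 127 and 1.01 CPM at day 3 and 2.04, 2.19, 71.4, 3.401 and 4.55 CPM at day 7, against 2.896, 1.47 and 2.03 CPM in sham muscle. The muscle with the most hepatocyte reads at day 3 and at day 7, number 4 and number 3, also had the most Cyp3a11 of its day. At day 1 muscle 5 had the most hepatocyte reads and muscle 1 the most Cyp3a11. The part of these reads in the muscle values was not tested.

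**Figure D5:**
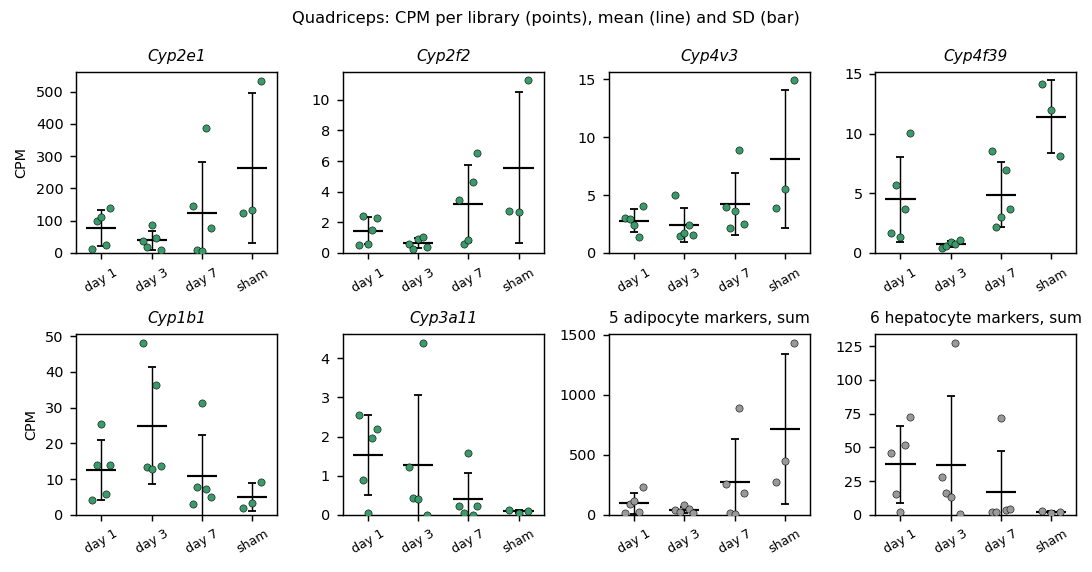
CPM of 6 P450 genes and the summed CPM of 5 adipocyte and 6 hepatocyte markers in each quadriceps library (points), with mean (line) and SD (bar), at days 1, 3 and 7 and in sham. Cyp4f39 is at most 1.097 CPM in every day 3 muscle, and Cyp2e1 and the adipocyte markers share their highest libraries.

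The change in liver minus the change in quadriceps was tested for the 22 members that passed the filter in both tissues, and 5, 10 and 5 passed at days 1, 3 and 7, against 11.2%, 41.5% and 7.08% of 12780 genes. Cyp4f16 was called at all 3 days, with a difference of 2.78 ± 0.53 at day 3 (edgeR adjusted p = 0.000179), where it rose in liver (1.84) and was lower in muscle (-0.95). Cyp2d22 went the other way, lower in liver and higher in muscle, with a difference of -1.74 ± 0.42 at day 3 (edgeR adjusted p = 0.00152). The change of Cyp2u1 was lower in liver than in muscle at all 3 days, with a difference of -1.86 ± 0.53 at day 7 (edgeR adjusted p = 0.0309). Cyp4f39 fell in muscle at day 3 and did not pass in liver, where liver levels were under 1 CPM (a difference of 4.2 ± 0.84, edgeR adjusted p = 0.000274). The differences of Cyp2d9, Cyp2j5 and Cyp3a11 set liver against the trace reads in muscle. Without the 5 muscles that held over 40 CPM of hepatocyte markers the counts were 3, 7 and 4. With 1 library left out they ran from 0 to 6, 7 to 10 and 2 to 5, with 0 at day 1 without sham liver 3 or sham muscle 3. No overlap of calls between days or tissues is given, because the days share sham libraries.

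The authors' deposited table gave adjusted p-values for the same comparisons with sham. In liver the authors' deposited table called 3 members higher and 6 lower at day 1, 4 and 27 at day 3, and 3 and 16 at day 7. Of the members called here, 8 of 8, 31 of 33 and 15 of 19 were also called there, 0 with the opposite sign. In quadriceps the authors' deposited table called 10 higher and 5 lower at day 1, 16 and 6 at day 3, and 0 at day 7. Those counts are over all 54 members, where 22 were tested here. Of the 9 members called here at day 3, 8 were also called there, 0 with the opposite sign.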

How the data were processed

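RNA of liver and quadriceps was sequenced in 36 libraries. Per the submitters' processing notes, reads were checked with FastQC 0.11.5, aligned with STAR 2.7.10a to mm10, and counted with featureCounts (Subread 2.0.3), and edgeR 3.40.2 was used. Whether counting used strand or divided reads of near-identical genes is not given in the sources used here. The deposited table holds raw counts per gene and library, gene lengths, and the authors' own log2 fold changes and adjusted p-values. A further 36 per-sample columns of the table were left unused.

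From the deposited counts, CPM was computed over library totals scaled by TMM within each tissue, so CPM levels in liver and quadriceps are not on exactly one scale. Changes came from the quasi-likelihood test of edgeR 4.0.16 in R 4.3.3 (TMM scaling, filterByExpr, robust fit, Benjamini-Hochberg adjustment over all genes tested), in 1 fit of 18 libraries per tissue, and liver minus quadriceps changes from an interaction over all 36. The standard error is the log2 change divided by the square root of F. The scripts were tested on simulated counts for day 3 against sham. There 9.33% of liver calls and 11.8% of quadriceps calls were false. Of simulated 2-fold changes 25.4% and 29.9% were found, and of 4-fold changes 74.2% and 69.7%. In each tissue 67 genes were changed 1.5-fold, 67 2-fold and 66 4-fold. In the data 3967 liver and 6454 quadriceps genes were called at day 3, so these rates need not hold there. No libraries were identical.

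The members and gene lists were chosen with earlier results of these data known. Members named with values are the 2 most abundant of each subfamily, members called in quadriceps, and a fixed list. The 8 largest falls called with a mean of at least 5 CPM are also named. Up to 8 rises were to be named by the same rule, and only Cyp4a31, Cyp4f16 and Cyp4f17 met it. Cyp2c44, Cyp2c67, Cyp2c69, Cyp2c70, Cyp4a32 and Cyp4f18 were added after their values were seen. Shared stretches of 50 bases were counted between GENCODE M21 transcripts. Alternatives were DESeq2 1.42.0, other filters, a replicate block, fits of only the groups compared, and leaving out libraries. The removal of libraries for marker reads of other cells was chosen after seeing the data. A result on 1 listed gene is not reported here.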

Additional observations from a re-analysis of the deposited data

Results flagged for a closer look

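In 117 sets of 5 libraries (a member in 1 tissue and day), 4 had a library far from the others on the log2(CPM + 1) scale by Dixon's test, which flags about 1 in 20 sets by chance. Cyp2e1 was 5169.7 CPM in day 7 liver 4, the highest of its day. Cyp2j5 was 338 CPM in day 1 liver 2 and Cyp4v3 252 CPM in day 3 liver 2, each the lowest of its day. Cyp2d22 was 25.3 CPM in day 3 quadriceps 1, the highest of its day.

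In 20 cases the change against sham differed between liver and quadriceps by the edgeR interaction test (adjusted p under 0.05), given as the log2 change in liver minus that in quadriceps. At day 1 the differences were -1.27 for Cyp2d22, -4.94 for Cyp2d9, -1.77 for Cyp2u1, 1.98 for Cyp4f16 and 1.82 for Cyp4f17. At day 3 they were -1.74 for Cyp2d22, -4.82 for Cyp2d9, -4.86 for Cyp2j5, -1.30 for Cyp2u1 and -4.71 for Cyp3a11. In family 4 the day 3 differences were -1.44 for Cyp4b1, -1.49 for Cyp4f13, 2.78 for Cyp4f16, 2.53 for Cyp4f18 and 4.2 for Cyp4f39. At day 7 they were -1.33 for Cyp2d22, -1.86 for Cyp2u1, -1.91 for Cyp4b1, -1.43 for Cyp4f13 and 2.63 for Cyp4f16.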

How the results depend on the processing

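Over the 71 called changes of the members named with values, not of all members, 1066 fits under alternatives were made: 904 stayed called, 162 lost the call and 0 changed sign. Of 2265 such fits of the 156 uncalled changes of these members, 68 became called and 96 changed sign. Counts of members called that moved by over 1.5 times were these. With DESeq2, 5 were higher at day 1 and 6 at day 7, 17 passed between day 7 and day 3, and 4 passed in quadriceps at day 1. With only the groups compared in the fit, 1 was higher at day 1, 4 passed between day 7 and day 3, and 3 in quadriceps at day 1. Without the muscle-rich day 1 livers 4 were higher and 5 lower at day 1, and without the cholangiocyte-rich ones 10 were lower. Without the islet-rich day 3 livers 14 passed between day 3 and day 1 and 0 between day 7 and day 3. With no filter on low counts, 19 liver minus quadriceps differences passed at day 3, and without the hepatocyte-read muscles 3 passed at day 1. The causes were not tested.

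With 1 library left out, counts ran from 1 to 4 higher and 3 to 6 lower at day 1, 4 to 4 and 25 to 30 at day 3, and 1 to 4 and 9 to 22 at day 7. They ran from 24 to 28 between day 3 and day 1, 0 to 13 between day 7 and day 3, 4 to 11 in quadriceps at day 3, and 0 to 0 there at days 1 and 7. Liver minus quadriceps counts ran from 0 to 6, 7 to 10 and 2 to 5 at days 1, 3 and 7.

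Replicate numbers were not taken to pair the samples. The labels do not state a pairing, and not every same-numbered pair correlated above 0.1 in its deviations from the group means. That rule cannot show that liver and quadriceps of one number came from different mice. The main liver minus quadriceps fit treated them as independent. Between days the correlations were -0.356 to 0.163 in liver and -0.372 to 0.34 in quadriceps. Liver and quadriceps of the same group and number had -0.079 to 0.354, over 0.1 in 11 of 18 pairs. With a replicate block, 3 members passed between day 7 and day 3 and 3 in the day 1 difference between tissues. Members near 1 CPM rest on few reads.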
